A study of Mus musculus with 9 samples.

Results

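A set of 10 genes of the transforming growth factor beta (TGF-beta) and bone morphogenetic protein (BMP) pathway was followed across 3 populations sorted from expanded mouse haematopoietic stem cell (HSC) cultures. The genes were chosen by symbol from a list, with earlier results of these data known. Each of the 10 symbols had 1 row among the 49585 rows of the count table. They comprise the ligand Tgfb1, the latency protein Ltbp1, the receptors Tgfbr1, Tgfbr2 and Bmpr2, the coreceptors Tgfbr3 and Eng, the signal transducer Smad3, and the inhibitors Smad7 and Skil. All 10 passed the filter on low counts, which left 11619 genes for testing. A further 86 genes of the same pathway, listed by role, are described after them.

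The libraries come from cultures in a medium with polyvinyl alcohol (PVA, 0.1%) in place of serum albumin, with thrombopoietin at 100 ng/ml and stem cell factor at 10 ng/ml. CD34-CD150+KSL bone marrow cells of wild-type C57BL/6 mice had been used to start them, where KSL stands for lineage-negative cells with Kit and Sca-1 on their surface. The design text gives 10 days in culture and the growth protocol gives a week. RNA from over 5000 sorted cells per population was made into bulk RNA-seq libraries, 9 in all. Every population shares this strain, medium and culture. The CD201+CD48- group (3 replicates) holds cells sorted as CD201+CD150+CD48-KSL, and the CD201+CD48+ group (3 replicates) cells sorted as CD201+CD150+CD48+KSL. The CD201- group (3 replicates) holds CD201-KSL cells, and the titles of its libraries, unlike their other labels, also place them in a CD150+CD48+ gate. CD201 is the endothelial protein C receptor, a surface marker that enriches HSCs in such cultures. Whether the replicates of a group came from different cultures or mice is not stated in the labels, and p-values cover the spread among these libraries alone, which may be technical.

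TGF-beta is secreted in a latent complex with its propeptide and a latent TGF-beta binding protein, and must be released before it can signal. Active ligand brings type II and type I receptor kinases together, coreceptors help to present it, and the type I receptor phosphorylates SMAD proteins that enter the nucleus with SMAD4 and regulate transcription. In bone marrow, TGF-beta is known for holding HSCs in quiescence, and BMPs use a parallel set of receptors and SMADs.

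Total counts ran from 3810123 to 7072885 per library, and from 13663 to 17845 genes had a count. Levels are given in CPM, counts scaled to a standard library size, with library sizes adjusted by the trimmed mean of M-values (TMM). CD201- replicate 3 stood apart from its group: on the first principal component (65.1% of the variance) it scored 55.3 against 39.5 and 39.7 for replicates 1 and 2. A chi-square comparison of its counts with theirs gave 13.0 and 12.4 per degree of freedom, against 1.36 to 3.44 for the other pairs within groups. Summed levels of 8 HSC marker genes ran from 1482 to 1512 CPM in CD201+CD48- cells. They ran from 891.2 to 908.9 in CD201+CD48+ cells and from 371.6 to 412.2 in CD201- cells. Of these markers, Hlf averaged 445.4, 252.0 and 50.3 CPM in the same order, and Slamf1 57.5, 53.1 and 47.1 CPM. Hoxb5 had no count in CD201- cells, but only 3, 2 and 3 in CD201+CD48- and 6, 0 and 4 in CD201+CD48+ replicates, too few for a test. Procr, which encodes CD201, followed its sort, at 63.2, 26.5 and 3.56 CPM on average. A list of 9 granulocyte and monocyte markers summed to 143.5 to 162.7, 106.2 to 113.8 and 70.8 to 100.3 CPM in the same order. Most of it was Lyz2 (135.0, 89.3 and 56.1 CPM on average). Mpo (0, 1.24 and 10.2 CPM) and Ctsg (0.143, 0.401 and 2.91 CPM) ran the other way. By the test described below, 1 of the 5 tested was called higher and 2 lower in each CD201+ population against CD201- cells. Of all genes, 24.2% were called higher and 23.9% lower for CD201+CD48- cells, and 14.8% and 14.3% for CD201+CD48+ cells. Elane, S100a8 and S100a9 had no count in either CD201+ population and averaged at most 0.0738 CPM in CD201- cells. A list of 6 lymphoid markers did not exceed 0.645 CPM in any library. Since these are bulk libraries, fewer cells of a type and less RNA per cell cannot be told apart.

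Promoters are printed for some members as examples. Ltbp1, with a pair of annotated starts, had the largest difference, and Tgfb1 was the member that was highest in CD201- cells. Tgfbr2 and Eng stand for the receptors and coreceptors that were highest in CD201+CD48- cells. Smad7, Tgfbr3 and Bmpr2 differed more than Tgfbr2 and Eng between CD201+CD48- and CD201- cells (4.64-, 2.30- and 1.96-fold against 1.86- and 1.75-fold). Smad7 and Tgfbr3 matched no promoter entry. The promoter of Bmpr2, which has no match to the motif marked below, is not printed. Each window holds 250 bases before and 50 bases from the annotated start, on the strand of the gene, 5′ to 3′, from RefSeq on GRCm38.p6, the assembly of mm10. Capitals mark CAGAC, the core of the SMAD-binding element, or its other strand GTCTG.
Ltbp1, upstream start, chr17:75005279-75005578: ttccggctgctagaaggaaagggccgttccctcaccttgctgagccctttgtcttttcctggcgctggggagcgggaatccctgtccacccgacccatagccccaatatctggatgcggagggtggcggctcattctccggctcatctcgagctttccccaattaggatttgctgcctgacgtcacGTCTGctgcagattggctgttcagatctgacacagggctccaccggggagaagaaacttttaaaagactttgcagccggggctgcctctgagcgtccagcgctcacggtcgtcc
Ltbp1, downstream start, chr17:75178531-75178830: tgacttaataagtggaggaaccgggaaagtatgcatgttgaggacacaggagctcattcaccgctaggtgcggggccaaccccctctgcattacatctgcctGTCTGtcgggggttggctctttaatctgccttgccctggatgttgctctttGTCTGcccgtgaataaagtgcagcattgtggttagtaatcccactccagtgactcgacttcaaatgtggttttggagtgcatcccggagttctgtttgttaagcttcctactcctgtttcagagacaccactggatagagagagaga
Tgfbr2, chr9:116175314-116175613: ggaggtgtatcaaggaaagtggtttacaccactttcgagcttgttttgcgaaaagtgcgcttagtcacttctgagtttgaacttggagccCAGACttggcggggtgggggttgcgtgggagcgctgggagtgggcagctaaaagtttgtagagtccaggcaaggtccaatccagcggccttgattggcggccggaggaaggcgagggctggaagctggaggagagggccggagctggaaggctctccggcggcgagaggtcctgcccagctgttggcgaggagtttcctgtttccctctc
Eng, chr2:32646345-32646644: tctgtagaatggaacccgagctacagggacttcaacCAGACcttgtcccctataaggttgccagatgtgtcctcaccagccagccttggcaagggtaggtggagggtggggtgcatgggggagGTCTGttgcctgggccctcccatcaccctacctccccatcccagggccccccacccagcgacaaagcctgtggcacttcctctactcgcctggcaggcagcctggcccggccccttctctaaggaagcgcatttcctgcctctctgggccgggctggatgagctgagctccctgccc
Tgfb1, chr7:25686752-25687051: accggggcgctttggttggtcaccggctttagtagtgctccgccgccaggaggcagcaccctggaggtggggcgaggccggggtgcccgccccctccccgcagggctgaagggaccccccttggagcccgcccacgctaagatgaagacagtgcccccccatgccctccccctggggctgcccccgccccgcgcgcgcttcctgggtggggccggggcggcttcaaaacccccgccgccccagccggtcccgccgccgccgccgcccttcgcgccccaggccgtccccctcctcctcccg

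Promoter entries matched 7 of the 10 members, with 9 windows between them, and none matched Tgfbr3, Smad7 or Skil. Each motif was searched on both strands. CAGAC stood in 5 of the 9 windows, those of Tgfbr2 (1 match), Eng (2 matches), both starts of Ltbp1 (1 match upstream and 2 downstream) and one of the starts of Tgfbr1 (1 match). It stands in 49.6% of the 32851 windows of the same length in the table, so such a match is common. GGCGCC, a GC-rich SMAD element, was found in 2 of the 9 windows (the other start of Tgfbr1, and Bmpr2) and in 11.9% of all windows. The RUNX motif TGTGGT was found at the downstream start of Ltbp1 alone among the 9, with 2 matches, and in 16.8% of all windows. The GATA motif AGATAA was in 0 of the 9 and in 11.2% of all windows. None of the 4 motifs contains another, and a match says nothing of binding. The GC content was 77% for Tgfb1, 63.3% for Eng, 59% for Tgfbr2, and 58.7% and 50% for the upstream and downstream starts of Ltbp1.

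Differences were tested with edgeR's quasi-likelihood test on the counts of all 9 libraries in one fit, with p-values adjusted by the Benjamini-Hochberg method over the 11619 genes, and a gene was called at an adjusted p under 0.05. Fold changes are log2 values of the first population over the second, with their standard error (SE).

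Between CD201+CD48- and CD201- cells, 6 of the 10 members were called higher, 1 lower, and 3 did not pass. Of all genes tested, 48.1% were called, 24.2% higher and 23.9% lower. The difference was at least 2-fold for Ltbp1, Smad7 and Tgfbr3, as for 12.2% of all genes. Replicates of the populations did not overlap for 8 members, as for 55.2% of all genes. The median log2 fold change of the members was 0.85, against 0.00 over all genes. Between CD201+CD48+ and CD201- cells, 5 were higher, 1 was lower and 4 did not pass, where 14.8% of all genes were called higher and 14.3% lower (29.1% in all). Here 7 members did not overlap (41.7% of all genes), 1 of the called ones, Smad7, differed at least 2-fold (6.12% of all genes), and the median was 0.23 against -0.00. Between the CD201+ populations, 6 members were higher in CD201+CD48- cells, 0 lower and 4 did not pass, where 9.05% of all genes were called higher and 6.31% lower (15.4% in all). Replicates of 8 members did not overlap (40.7% of all genes), 1 of the called ones, Ltbp1, differed at least 2-fold (3.55% of all genes), and the median was 0.37 against -0.01. The 3 comparisons share samples, so their values are given side by side for each gene and their calls are not independent. Since the members were chosen with earlier results of these data known, their counts and medians beside those of all genes show no independent excess.

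**Figure D1:**
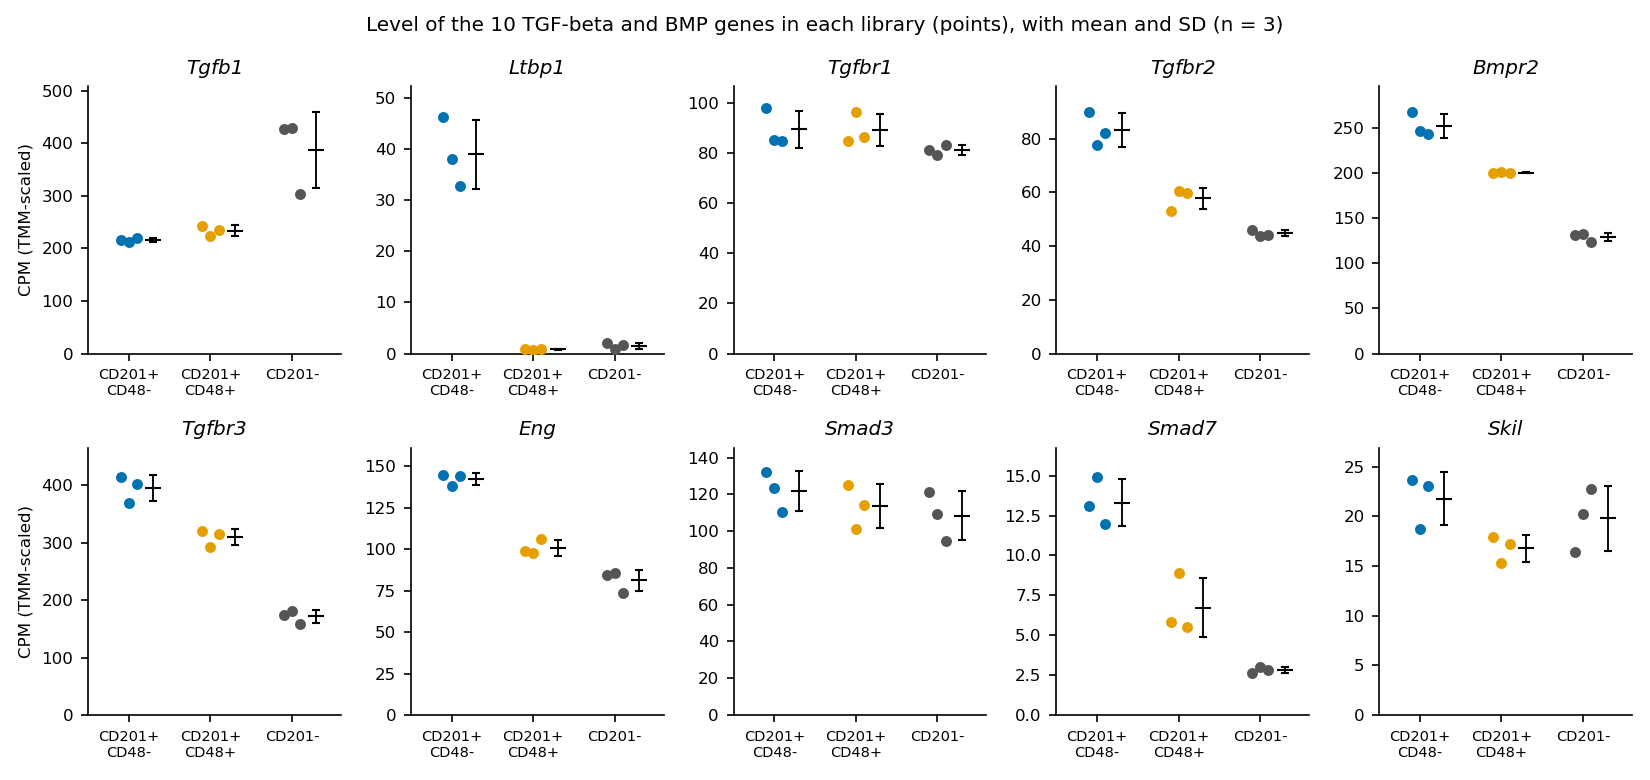
Level of each of the 10 genes (CPM, TMM-scaled, linear axes from 0) in each of the 9 libraries as points, with the mean and SD of the 3 replicates as bars. Ltbp1 lies between 32.8 and 46.3 CPM in CD201+CD48- cells and under 2 CPM in every other library, Tgfb1 is highest in CD201- cells, and Tgfbr2, Bmpr2, Tgfbr3, Eng and Smad7 descend from CD201+CD48- over CD201+CD48+ to CD201- cells.

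Tgfb1 encodes TGF-beta 1, the main TGF-beta ligand of haematopoietic tissue (chromosome 7, 25687002 to 25705077, GRCm38.p6, as for all coordinates here). It stood at 215.4, 212.5 and 219.2 CPM in CD201+CD48- replicates 1 to 3 and at 242.4, 223.4 and 235.7 CPM in CD201+CD48+ replicates. The CD201- replicates stood at 426.9, 429.7 and 303.7 CPM. All CD201- libraries were thus above all CD201+ libraries, and CD201- replicate 3 was the lowest of its group, by 0.50 on the log2 scale from the mean of the other two. The log2 fold change was -0.84 (SE 0.11, adjusted p = 1.76e-05) for CD201+CD48- against CD201- cells, 1.79-fold lower. It was -0.73 (SE 0.11, adjusted p = 1.73e-04) for CD201+CD48+ against CD201- cells, 1.65-fold lower. Tgfb1 was the member called lower in these comparisons, the direction opposite to that of the receptors. Between the CD201+ populations it was -0.12 (95% interval -0.35 to 0.12, adjusted p = 0.531), although the CD201+CD48+ replicates lay above the CD201+CD48- ones. Without CD201- replicate 3 the log2 fold changes against CD201- cells were -0.99 and -0.87. A list of 6 mast cell markers was also highest in CD201- cells, with summed levels of 35.9 to 44.3 CPM there. The sums were 5.09 to 9.60 CPM in CD201+CD48- and 3.44 to 4.72 in CD201+CD48+ cells, the reverse of the order of Tgfb1 in these. Most of the CD201- sum was Gzmb (31.9 CPM on average). Both tested markers (Gzmb and Cpa3) were called lower in each CD201+ population against the CD201- group. Of all genes, 23.9% were called lower for CD201+CD48- and 14.3% for CD201+CD48+ cells. Fcer1a (0.459 against 0.143 CPM) and Hdc (0.378 against 0.0738 CPM), too low for a test, averaged more in CD201+CD48- than in CD201- cells. The part of the mast cell markers in the Tgfb1 difference was not tested.

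Ltbp1 encodes a latent TGF-beta binding protein, which holds latent TGF-beta in the extracellular matrix (chromosome 17, 75005480 to 75392512). Its levels were 46.3, 38.2 and 32.8 CPM in CD201+CD48- replicates, 0.854, 0.756 and 0.963 CPM in CD201+CD48+ replicates and 1.99, 0.861 and 1.75 CPM in CD201- replicates. The counts behind them were 262, 151 and 148 in CD201+CD48- cells, against 5, 4 and 7 in CD201+CD48+ cells and 9, 4 and 8 in CD201- cells. Ltbp1 was therefore found at an appreciable level in a single population, with no overlap to either of the others. The log2 fold change was 4.66 (SE 0.24, adjusted p = 8.73e-10) against CD201- cells, a 25.3-fold difference. Against CD201+CD48+ cells it was 5.46 (SE 0.25, adjusted p = 5.25e-10), a 44.0-fold difference, which was the largest among the members. CD201+CD48+ and CD201- replicates overlapped (log2 fold change -0.80, 95% interval -1.80 to 0.20, adjusted p = 0.219), with 4 to 9 counts a library behind these values. Counts per gene do not separate the starts of Ltbp1 whose promoters are printed above. A list of 10 megakaryocyte markers had summed levels of 1673 to 1817 CPM in CD201+CD48- cells, 433.3 to 454.5 in CD201+CD48+ cells and 657.5 to 800.2 in CD201- cells, the same order as the means of Ltbp1. Markers of this list differed in order. Itga2b averaged 298.2, 79.1 and 356.1 CPM in CD201+CD48-, CD201+CD48+ and CD201- cells, and Vwf 714.6, 125.0 and 65.5 CPM. Of the 9 tested, 8 were higher in CD201+CD48- than in CD201+CD48+ cells and 0 lower, and against CD201- cells 7 were higher and 1 lower. Between CD201+CD48+ and CD201- cells 1 (Vwf) was higher, 3 were lower and 5 did not pass. The part of these markers in the Ltbp1 difference was not tested.

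Tgfbr1 encodes the type I TGF-beta receptor kinase, which passes the signal to SMAD2 and SMAD3 (chromosome 4, 47353222 to 47414926). It stood at 98.0, 85.4 and 85.0 CPM in CD201+CD48- replicates, 84.9, 96.6 and 86.5 CPM in CD201+CD48+ replicates and 81.2, 79.2 and 83.3 CPM in CD201- replicates. The CD201+ replicates overlapped each other, and the CD201- ones lay just below both. The log2 fold changes were 0.14 (95% interval -0.04 to 0.33, adjusted p = 0.185) for CD201+CD48- against CD201- cells, 0.14 (-0.04 to 0.32, adjusted p = 0.247) for CD201+CD48+ against CD201- cells and 0.01 (-0.17 to 0.19, adjusted p = 0.967) between the CD201+ populations. None of them passed. With the library size alone as scaling, which moved the median of all genes by 0.17 and 0.13 in the comparisons with CD201- cells, those with CD201- cells passed (0.31, adjusted p = 0.00761, and 0.27, adjusted p = 0.0266).

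Tgfbr2 encodes the type II receptor that binds TGF-beta and activates the type I receptor (chromosome 9, 116087695 to 116175363). Its levels were 89.9, 77.6 and 82.1 CPM in CD201+CD48- replicates, 53.1, 60.5 and 59.6 CPM in CD201+CD48+ replicates and 46.0, 43.9 and 44.3 CPM in CD201- replicates. The 3 populations formed separate bands without overlap, the CD201+CD48- replicates highest. Its log2 fold change was 0.90 (SE 0.09, adjusted p = 1.27e-06) for CD201+CD48- against CD201- cells, 1.86-fold. The CD201+CD48+ cells exceeded CD201- cells by 0.37 (SE 0.09, adjusted p = 0.00755) and were exceeded by CD201+CD48- cells by 0.53 (SE 0.09, adjusted p = 6.59e-04).

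Bmpr2 encodes the type II receptor of BMPs (chromosome 1, 59764279 to 59878081). It stood at 266.9, 246.3 and 242.7 CPM in CD201+CD48- replicates, 199.7, 200.7 and 200.1 CPM in CD201+CD48+ replicates and 130.8, 132.1 and 123.8 CPM in CD201- replicates. Again no population overlapped another, and the replicates were tight, the CD201+CD48+ ones at an SD of 0.491 CPM. CD201+CD48- cells were higher than CD201- cells by 0.97 (SE 0.07, adjusted p = 4.2e-08), 1.96-fold, and higher than CD201+CD48+ cells by 0.33 (SE 0.07, adjusted p = 0.00407). CD201+CD48+ cells were higher than CD201- cells by 0.63 (SE 0.07, adjusted p = 1.11e-05).

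The coreceptors had the same order. So did the summed granulocyte and monocyte markers given above, most of them Lyz2, while Mpo and Ctsg of that list ran the other way. A list of 6 erythroid markers also had this order. It summed to 196.3 to 221.2 CPM in CD201+CD48- cells, 135.5 to 147.8 in CD201+CD48+ cells and 49.97 to 92.5 in CD201- cells. Most of the latter was Hbb-bt, a beta-globin (206.3, 137.6 and 74.0 CPM on average), while Car1 and Hba-a1 had no count in any library. The part of these cell types in the differences of the members with this order was not tested. Tgfbr3 encodes betaglycan, a proteoglycan that binds TGF-beta and inhibin and presents ligand to the type II receptor (chromosome 5, 107106567 to 107289629). It stood at 413.7, 369.4 and 402.1 CPM in CD201+CD48- replicates, 320.4, 293.1 and 314.9 CPM in CD201+CD48+ replicates and 174.2, 181.6 and 158.7 CPM in CD201- replicates. No replicate of one population reached into another, and CD201- replicate 3 was the lowest library. The log2 fold change was 1.20 (SE 0.08, adjusted p = 1.48e-08) for CD201+CD48- against CD201- cells, 2.30-fold. It was 0.85 (SE 0.08, adjusted p = 2.19e-06) for CD201+CD48+ against CD201- cells and 0.35 (SE 0.08, adjusted p = 0.00635) between the CD201+ populations.

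Eng encodes endoglin, a coreceptor of TGF-beta 1 and of BMP9 and BMP10 that marks endothelial cells and long-term HSCs (chromosome 2, 32646595 to 32682669). Its levels were 144.6, 138.2 and 144.1 CPM in CD201+CD48- replicates, 98.8, 97.5 and 106.4 CPM in CD201+CD48+ replicates and 84.3, 85.4 and 73.9 CPM in CD201- replicates. The CD201+CD48- replicates stood well above the rest, and the other populations lay closer together without overlapping. The log2 fold change was 0.81 (SE 0.08, adjusted p = 8.72e-07) for CD201+CD48- against CD201- cells and 0.50 (SE 0.08, adjusted p = 4.23e-04) between the CD201+ populations. For CD201+CD48+ against CD201- cells it was 0.31 (SE 0.08, adjusted p = 0.00807), and this call was lost without CD201+CD48+ replicate 3, the highest of its group (0.27, adjusted p = 0.0508). A list of 8 endothelial markers had summed levels of 348.2 to 380.6 CPM in CD201+CD48- cells, 254.4 to 268.7 in CD201+CD48+ cells and 146.0 to 201.2 in CD201- cells. Their largest part was Tie1, which averaged 191.9, 142.2 and 114.2 CPM in that order, followed by Esam at 78.0, 54.7 and 23.4 CPM and Tek at 44.8, 28.4 and 21.1 CPM. Kdr averaged 27.3, 20.7 and 18.2 CPM, Emcn 14.6, 9.46 and 1.82 CPM and Cdh5 8.42, 2.53 and 1.31 CPM, while Flt1 did not exceed 1.20 CPM and Cldn5 0.147 CPM in any population's mean. All 6 tested markers were higher in CD201+CD48- than in either other population (24.2% of all genes against CD201- and 9.05% against CD201+CD48+ cells). Between CD201+CD48+ and CD201- cells 3 of 6 were higher (14.8% of all genes). Their part in the Eng difference was not tested. Eng overlaps Fpgs and other annotated genes, and since the use of strand in counting is not given, its counts are less certain.

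**Figure D2:**
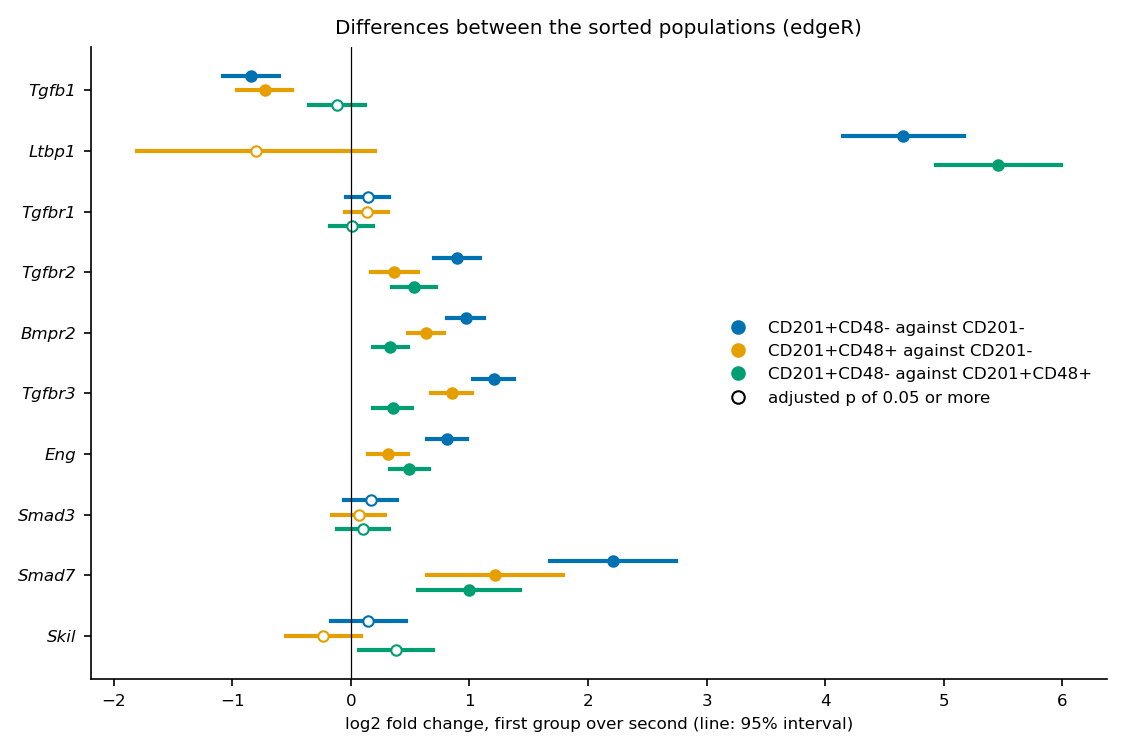
Log2 fold change (horizontal axis, edgeR) of each of the 10 genes in the 3 comparisons. Lines are 95% intervals built from the SE derived from the F value. Points are filled for adjusted p under 0.05 and open otherwise. Ltbp1 reaches 4.66 and 5.46 in the comparisons of CD201+CD48- cells, Tgfb1 lies at -0.84 and -0.73 in those with CD201- cells, and the intervals of Tgfbr1 and Smad3 include 0 throughout.

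Smad3 encodes a SMAD that the TGF-beta type I receptor phosphorylates (chromosome 9, 63646766 to 63757994). It stood at 132.1, 123.3 and 110.5 CPM in CD201+CD48- replicates, 125.2, 101.1 and 114.3 CPM in CD201+CD48+ replicates and 121.5, 109.5 and 94.5 CPM in CD201- replicates. All 3 populations overlapped. The log2 fold changes were 0.17 (95% interval -0.05 to 0.39, adjusted p = 0.197) for CD201+CD48- against CD201- cells, 0.07 (-0.15 to 0.29, adjusted p = 0.667) for CD201+CD48+ against CD201- cells and 0.10 (-0.12 to 0.32, adjusted p = 0.559) between the CD201+ populations. None passed, and the first passed with the library size alone as scaling (0.34, adjusted p = 0.029).

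Smad7 encodes an inhibitory SMAD that blocks the type I receptor and is itself induced by TGF-beta (chromosome 18, 75367365 to 75395935). Its levels were 13.1, 14.9 and 12.0 CPM in CD201+CD48- replicates, 5.81, 8.88 and 5.50 CPM in CD201+CD48+ replicates and 2.66, 3.01 and 2.85 CPM in CD201- replicates. They rest on 54 to 74, 34 to 47 and 12 to 14 counts a library. The populations did not overlap, and CD201+CD48+ replicate 2 was the highest of its group. The log2 fold change was 2.21 (SE 0.25, adjusted p = 3.8e-06) for CD201+CD48- against CD201- cells, 4.64-fold. It was 1.22 (SE 0.27, adjusted p = 0.00353) for CD201+CD48+ against CD201- cells and 1.00 (SE 0.20, adjusted p = 0.00345) between the CD201+ populations. Smad7 had the largest fold change of the called members between CD201+CD48+ and CD201- cells and, after Ltbp1, in the other comparisons.

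Skil encodes SnoN, a nuclear corepressor that binds SMAD complexes (chromosome 3, 31095058 to 31122923). It stood at 23.7, 18.7 and 23.0 CPM in CD201+CD48- replicates, 17.9, 15.3 and 17.2 CPM in CD201+CD48+ replicates and 16.4, 20.2 and 22.8 CPM in CD201- replicates. The CD201- replicates spread over the range of both CD201+ populations, which themselves did not overlap. The log2 fold changes were 0.15 (95% interval -0.17 to 0.46, adjusted p = 0.441) and -0.23 (-0.55 to 0.08, adjusted p = 0.261) for CD201+CD48- and CD201+CD48+ against CD201- cells. Between the CD201+ populations it was 0.38 (0.07 to 0.69, adjusted p = 0.0968). That comparison passed when only these 6 libraries were fitted (adjusted p = 0.0231) or without CD201- replicate 3 (adjusted p = 0.0234).

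To compare the genes with each other, levels were divided by the length of the canonical transcript (CPM per kb). Tgfb1 was the most abundant member per kb in every population, at 97.4 ± 1.52, 105.6 ± 4.37 and 174.6 ± 32.5 CPM per kb in CD201+CD48-, CD201+CD48+ and CD201- cells (SD, n = 3 each). Tgfbr3 followed at 64.9 ± 3.77, 50.8 ± 2.37 and 28.2 ± 1.92, and Eng came next at 40.8 ± 1.02, 28.9 ± 1.39 and 23.3 ± 1.83. In CD201+CD48- cells the order went on with Smad3 (23.1), Bmpr2 (19.5), Tgfbr1 (15.3), Tgfbr2 (9.81), Ltbp1 (7.01), Skil (3.12) and Smad7 (2.95 CPM per kb), and among neighbours in it Skil and Smad7 alone had overlapping replicates. In CD201+CD48+ cells Bmpr2 (15.5) and Tgfbr1 (15.3) overlapped, and in CD201- cells Eng and Smad3 (20.5) did, with all other neighbours apart. Bmpr2 thus passed from the fifth place in CD201+CD48- cells to the sixth in CD201- cells, below Tgfbr1 (9.98 against 13.9 CPM per kb). Ltbp1 was the lowest member in CD201+CD48+ (0.154) and CD201- cells (0.276 CPM per kb). With the length of all annotated exons together instead, Tgfbr3 ranked above Tgfb1 in CD201+CD48- cells and Smad3 ranked above Eng in each population, so the order of the upper members depends on the isoforms assumed.

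**Figure D3:**
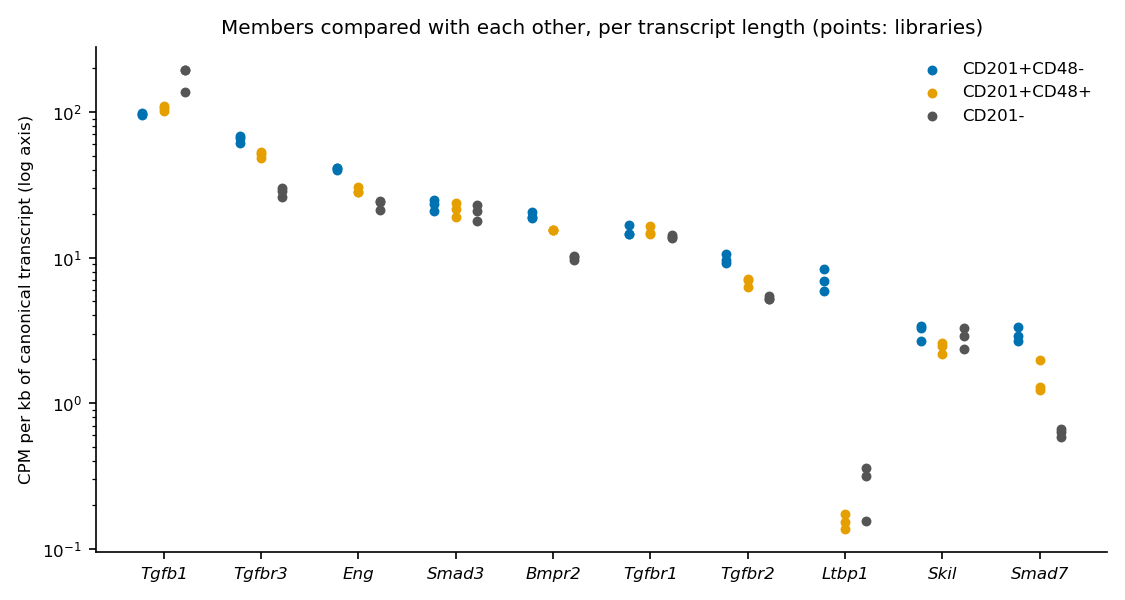
Level per kb of canonical transcript (CPM per kb, log axis) of each of the 10 genes, 1 point per library, colored by population. Tgfb1 is at the top in all populations, and Ltbp1 drops from about the level of Tgfbr2 in CD201+CD48- cells to the bottom in the others.

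Ratios of members within a library do not depend on its scaling. The ratio of Tgfbr2 to Tgfbr1, the receptor partners, was 0.632, 0.626 and 0.666 per length in CD201+CD48- replicates, 0.431, 0.431 and 0.474 in CD201+CD48+ replicates and 0.390, 0.382 and 0.366 in CD201- replicates. The type II receptor thus had its largest share of the pair in CD201+CD48- cells, with no overlap between populations. The ratio of the coreceptors Tgfbr3 to Eng was 1.64, 1.53 and 1.60 in CD201+CD48- cells, 1.86, 1.72 and 1.70 in CD201+CD48+ cells and 1.18, 1.22 and 1.23 in CD201- cells. It was highest in the CD201+CD48+ population. The log2 difference from CD201+CD48- to CD201+CD48+ cells was 0.50 for Eng and 0.35 for Tgfbr3, and that from CD201+CD48+ to CD201- cells 0.31 and 0.85. The ratio of the inhibitor Smad7 to Smad3 was 0.116, 0.142 and 0.127 in CD201+CD48- cells, 0.0545, 0.103 and 0.0565 in CD201+CD48+ cells and 0.0257, 0.0323 and 0.0354 in CD201- cells. The ligand to receptor ratio, Tgfb1 over Tgfbr2, ran the other way, at 9.18, 10.5 and 10.2, then 17.5, 14.1 and 15.2, then 35.5, 37.5 and 26.3. None of these 4 ratios had overlapping replicates between populations. With 3 replicates a group an exact permutation test of a ratio cannot fall below a p of 0.10, so no test is given.

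**Figure D4:**
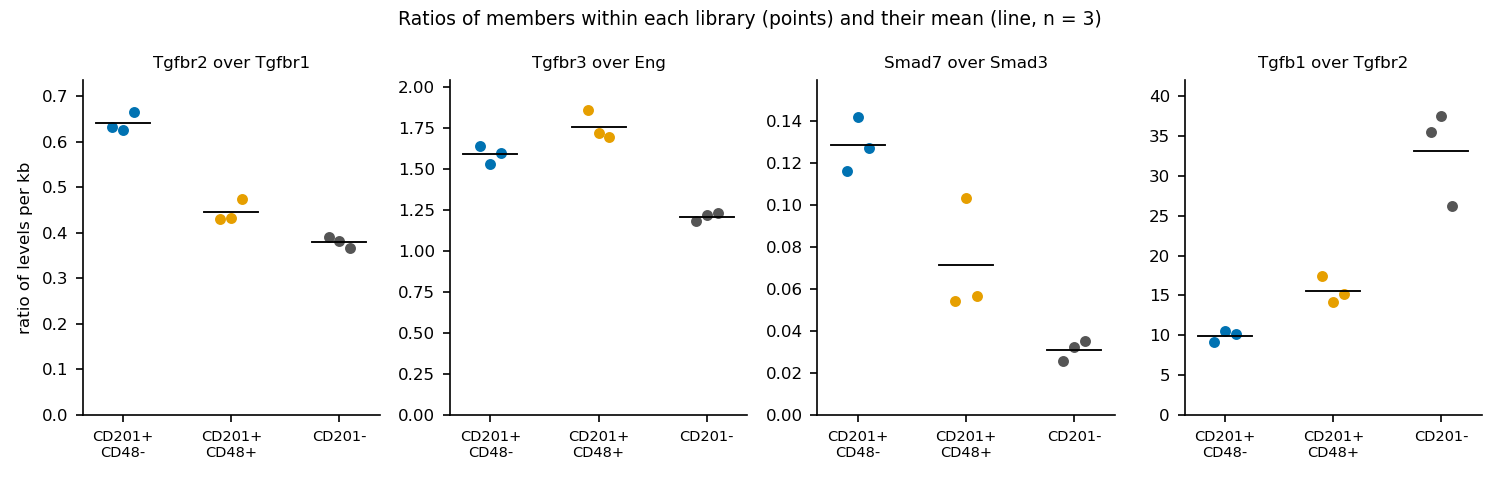
Ratio of the levels per kb of 4 pairs of genes in each library (points, linear axes from 0) with the group mean as a line. Tgfbr2 over Tgfbr1 averages 0.641, 0.446 and 0.379 in CD201+CD48-, CD201+CD48+ and CD201- cells, whereas Tgfb1 over Tgfbr2 averages 9.96, 15.6 and 33.1.

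The genes with the most similar profile to each member were those with the smallest root mean square difference of centred log2 CPM over the 9 libraries. For Tgfb1 they were Slc1a5 (0.0750) and Slc3a2 (0.0759), and for Tgfbr1 Mbd5 (0.0445) and Ankfy1 (0.0485). For Tgfbr2 they were Glul (0.0454) and Mxd1 (0.0684), for Bmpr2 Epb41l4b (0.0404) and Rnf215 (0.0583), for Tgfbr3 Il10ra (0.0651) and Sesn3 (0.0673), and for Eng Sirt2 (0.0564) and Rgp1 (0.0607). Smad3 was nearest to Med25 (0.0446) and Tmbim6 (0.0670), and Skil to Flot1 (0.0609) and Usb1 (0.0902). Log2 CPM of Tgfbr1, Smad3 and Skil had an SD of 0.104, 0.155 and 0.225 over the 9 libraries. A small difference thus says little of a shared profile for these members. Smad7 was nearest to Patj (0.181) and Smpdl3a (0.193). Ltbp1 had the least similar neighbours, F13a1 (0.516) and Serpinb2 (0.552), and its log2 differences were also the largest.

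Of the 86 other pathway genes with a row, 49 were tested and 37 had too few counts, Rgma, Nog and Ctgf among them with none in any library. Between CD201+CD48- and CD201- cells 22 of the 49 were higher and 7 lower, with a median log2 fold change of 0.22. Between CD201+CD48+ and CD201- cells 13 were higher and 5 lower (median 0.16), and between the CD201+ populations 10 were higher in CD201+CD48- cells and 1 lower (median 0.07). They stand beside the shares of all genes called that were given above, were not tested as a set, and nothing particular to the pathway is read from them. Genes below were chosen as the up to 4 per role with the smallest p, and Ltbp4, Fbn1, Ski, Tgif2, Ppm1a, Trim33, Nedd4l, Id1, Bhlhe40 and Cdkn1c, which complete small counts, were added after their values were seen.

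Among 15 further ligands 3 were tested. Bmp4, a BMP ligand, had summed counts of 47 in CD201+CD48-, 30 in CD201+CD48+ and 0 in CD201- cells. With 3 counts for the whole CD201- group as a floor, this was at least 15.2-fold higher in CD201+CD48- and at least 7.46-fold higher in CD201+CD48+ cells than in CD201- ones (adjusted p = 1.33e-04 and 0.00325). The CD201+ populations overlapped for it (adjusted p = 0.133), and the difference passed in 2 of 17 alternatives (only these 2 groups fitted, or without CD201- replicate 3, adjusted p = 0.0391). Gdf11 (8.34, 8.17 and 7.36 CPM) and Bmp8b (1.96, 2.32 and 2.04 CPM) did not pass in any comparison. Tgfb2 and Tgfb3, the other TGF-beta isoforms, were too low for a test, with 19 and 67 counts over all 9 libraries.

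Among the receptors, Acvr1b, an activin type I receptor, ran against the type II receptors, at 50.1 ± 3.82, 69.2 ± 6.90 and 82.0 ± 6.44 CPM (SD, n = 3 each) in CD201+CD48-, CD201+CD48+ and CD201- cells. It was lower in CD201+CD48- cells than in CD201- cells (log2 fold change -0.71, adjusted p = 3.55e-05) and than in CD201+CD48+ cells (-0.46, adjusted p = 0.00518). Acvr1, a BMP type I receptor, averaged 11.6, 10.0 and 6.11 CPM and was higher in CD201+CD48- cells against CD201- ones (0.92, adjusted p = 0.00231). Its call for CD201+CD48+ against CD201- cells (0.71, adjusted p = 0.0206) was lost in 3 of 17 alternatives (without CD201+CD48+ replicate 2 or 3 or CD201- replicate 1, adjusted p up to 0.0729). Acvr2b averaged 11.4, 11.4 and 7.07 CPM and passed against CD201- cells by little (adjusted p = 0.0409 and 0.0489), and these calls were lost in 9 and 13 of 17 alternatives. Without CD201- replicate 3, the lowest library for Acvr2b, the adjusted p was 0.131 and 0.124. Acvr2a did not pass, but without CD201- replicate 3 it did against CD201- cells in both CD201+CD48- (0.47, adjusted p = 0.00185) and CD201+CD48+ cells (0.37, adjusted p = 0.0186), as it did with the library size alone. Leaving out the same library, or CD201+CD48+ replicate 2, Acvr1b also passed for CD201+CD48+ against CD201- cells (log2 fold change -0.27, adjusted p = 0.0126, without CD201- replicate 3). The BMP type I receptor Bmpr1a, with 47 counts over all 9 libraries, and Acvrl1, with 41, were not tested, nor was any of the 4 further coreceptors.

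The latency and activation group had 6 of 8 tested genes higher in CD201+CD48- than in CD201- cells and 0 lower, where 24.2% of all genes were higher and 23.9% lower. Between CD201+CD48+ and CD201- cells 2 were higher and 1 lower (14.8% and 14.3% of all genes). Between the CD201+ populations 3 were higher in CD201+CD48- cells and 0 lower (9.05% and 6.31% of all genes). Thbs1, thrombospondin 1, an activator of latent TGF-beta that platelets and megakaryocytes also carry, averaged 149.8 ± 28.3, 2.50 ± 0.552 and 26.6 ± 3.04 CPM (SD, n = 3 each). The log2 fold change was 2.50 (adjusted p = 2.18e-09) for CD201+CD48- against CD201- cells, -3.43 (adjusted p = 7.37e-08) for CD201+CD48+ against CD201- cells and 5.93 (adjusted p = 3.41e-11) for CD201+CD48- against CD201+CD48+ cells. Thbs1 had the order of the summed megakaryocyte markers given beside Ltbp1, and their part was not tested. Lrrc32, which encodes GARP, the membrane anchor of latent TGF-beta, averaged 4.28 ± 0.281, 0.623 ± 0.283 and 0.217 ± 0.215 CPM. It was higher in CD201+CD48- cells against CD201- ones (4.16, adjusted p = 2.16e-05) and CD201+CD48+ cells (2.79, adjusted p = 3.4e-04). Its counts were 1, 2 and 0 in CD201- and 3, 5 and 3 in CD201+CD48+ replicates, so these fold changes are imprecise. Furin, the protease that cleaves the TGF-beta precursor, averaged 90.6, 65.6 and 53.4 CPM and was higher in CD201+CD48- cells than in CD201- cells (0.76, adjusted p = 1.73e-05) and CD201+CD48+ cells (0.47, adjusted p = 0.00365). Its call for CD201+CD48+ against CD201- cells (0.29, adjusted p = 0.0395) was lost in 9 of 17 alternatives, with adjusted p up to 0.167, among them leaving out any CD201+CD48- replicate, CD201+CD48+ replicate 1 or 2, or CD201- replicate 1 or 3. Ltbp3 was higher in CD201+CD48- cells against CD201- ones (0.64, adjusted p = 9.5e-04). Ltbp4 (1.36, adjusted p = 0.0257) and Fbn1, fibrillin 1 (1.20, adjusted p = 0.0163), completed the 6 higher genes of that comparison. Each call was lost without CD201+CD48- replicate 1 (adjusted p up to 0.173 and 0.198 over the alternatives). The Ltbp4 call was also lost without CD201- replicate 2 or 3, and the Fbn1 call without CD201- replicate 1. For CD201+CD48+ against CD201- cells Ltbp4 was called as well (1.47, adjusted p = 0.0217), lost in 3 of 17 alternatives (adjusted p up to 0.0796). Ltbp3 did not pass there (adjusted p = 0.0571) but did in 3 of 17 alternatives, and in 2 of 17 between the CD201+ populations.

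Among the SMADs, Smad1 and Smad5, which carry BMP signals, exceeded their CD201- levels in each CD201+ population, and Smad2 and Smad4 did not pass. Smad4 passed in CD201+CD48- against CD201- cells in 3 of 17 alternatives (the library size alone, and without CD201+CD48+ replicate 1 or CD201- replicate 1), and in CD201+CD48+ against CD201- cells with the library size alone. Smad1 averaged 58.7, 56.4 and 37.5 CPM (log2 fold changes 0.65, adjusted p = 4.68e-05, and 0.59, adjusted p = 2.55e-04). Smad5 averaged 152.9, 167.3 and 118.2 CPM (0.37, adjusted p = 0.00167, and 0.50, adjusted p = 3.52e-04). Neither passed between the CD201+ populations (adjusted p = 0.73 and 0.333), where Bmpr2 did.

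Of 12 tested inhibitors, 6 were higher and 3 lower when CD201+CD48- cells were set against CD201- cells, where 24.2% of all genes were higher and 23.9% lower. Between CD201+CD48+ and CD201- cells 2 were higher and 1 lower (14.8% and 14.3% of all genes). Between the CD201+ populations 3 were higher in CD201+CD48- cells and 0 lower (9.05% and 6.31% of all genes). Smad6, the inhibitory SMAD of the BMP branch, averaged 10.9 ± 1.29, 6.87 ± 1.55 and 2.12 ± 1.00 CPM (SD, n = 3 each), the order of Smad7. It was higher in CD201+CD48- (2.36, adjusted p = 1.34e-05) and CD201+CD48+ cells (1.69, adjusted p = 0.00101) than in CD201- cells, and did not pass between the CD201+ populations (0.67, adjusted p = 0.0649), where 4 of 17 alternatives gave a call (no filter on low counts, only these 2 groups fitted, and without CD201- replicate 1 or 3, adjusted p = 0.0066 without the latter). Smurf1, a ubiquitin ligase for SMADs, was higher in both against CD201- cells (0.57, adjusted p = 3.14e-04, and 0.42, adjusted p = 0.0058). Tob1, an antiproliferative SMAD cofactor, was higher in CD201+CD48- cells against CD201- ones (0.80, adjusted p = 2.05e-04) and than in CD201+CD48+ cells (0.55, adjusted p = 0.00844, lost without CD201+CD48- replicate 1 at 0.0656). Fkbp1a, which encodes FKBP12, a brake on the type I receptor, was higher in CD201+CD48- cells against CD201- ones (0.51, adjusted p = 6.87e-04), and its call against CD201+CD48+ cells (0.33, adjusted p = 0.0379) was lost in 8 of 17 alternatives, leaving out any 1 replicate of either CD201+ population among them (adjusted p up to 0.17). Ski, a relative of Skil, and Tgif2 completed the higher genes (0.37, adjusted p = 0.00363, and 0.81, adjusted p = 0.0116). Ski also passed between the CD201+ populations (0.34, adjusted p = 0.0172), lost in 4 of 17 alternatives (without CD201+CD48- replicate 1 or 3 or CD201+CD48+ replicate 2 or 3, adjusted p up to 0.103). The lower ones between CD201+CD48- and CD201- cells were Ppm1a (-0.27, adjusted p = 0.0051), Trim33 (-0.24, adjusted p = 0.0103) and Nedd4l (-0.40, adjusted p = 0.00428). All 3 calls were lost with the library size alone as scaling (adjusted p = 0.274, 0.435 and 0.0842).

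Of 9 tested signaling partners, Zfyve9, which encodes SARA, an anchor that brings SMADs to the receptor, was the 1 called higher. The shares of all genes called higher against CD201- cells were 24.2% for CD201+CD48- and 14.8% for CD201+CD48+ cells. It averaged 16.8 ± 0.833, 13.8 ± 0.773 and 5.61 ± 0.449 CPM (SD, n = 3 each), a log2 fold change of 1.58 (adjusted p = 1.87e-06) and 1.30 (adjusted p = 3.74e-05) for CD201+CD48- and CD201+CD48+ against CD201- cells, and 0.28 (adjusted p = 0.195) between them. Tab1 and Tab2, adaptors of the kinase TAK1, were lower in CD201+CD48- cells against CD201- ones (-0.45, adjusted p = 0.005, and -0.21, adjusted p = 0.0244). With the library size alone as scaling neither passed (adjusted p = 0.0587 and 0.665), and the Tab2 call was also lost without any single CD201+CD48- replicate. Map3k7, which encodes TAK1, did not pass.

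Genes known as transcriptional targets of the pathway did not share a direction. Tgfbi, a TGF-beta induced matrix protein, averaged 14.9 ± 0.275, 3.13 ± 0.910 and 1.16 ± 0.241 CPM (SD, n = 3 each), the order of Tgfbr2 and Smad7. Its log2 fold change was 3.65 (adjusted p = 6.93e-08), 1.43 (adjusted p = 0.00731) and 2.21 (adjusted p = 5.28e-06) for CD201+CD48- against CD201-, CD201+CD48+ against CD201- and CD201+CD48- against CD201+CD48+ cells. These values rest on 4, 6 and 6 counts in CD201- and 21, 11 and 27 in CD201+CD48+ replicates. Junb exceeded its CD201- level in each CD201+ population (1.02, adjusted p = 1.52e-05, and 0.55, adjusted p = 0.00623), and its call between the CD201+ populations (0.47, adjusted p = 0.0167) was lost in 3 of 17 alternatives (without CD201+CD48- replicate 1 or CD201+CD48+ replicate 1 or 3, adjusted p up to 0.128). Tsc22d1 was higher in both than in the CD201- group (0.56, adjusted p = 1.29e-05, and 0.47, adjusted p = 1.49e-04). Id1, a BMP target, ran the other way, at 22.8, 23.8 and 44.9 CPM, below its CD201- level in each CD201+ population (-0.99, adjusted p = 3.06e-04, and -0.92, adjusted p = 0.001). The cell cycle inhibitor Cdkn1a, p21, was lowest in CD201+CD48+ cells, at 24.7 ± 3.38, 14.4 ± 0.359 and 29.8 ± 5.16 CPM. It was lower there than in CD201- cells (-1.05, adjusted p = 9.27e-05) and higher in CD201+CD48- than in CD201+CD48+ cells (0.78, adjusted p = 0.00236). The related Cdkn1c, p57, was higher in CD201+CD48- cells than in CD201- (0.91, adjusted p = 3.36e-04) and CD201+CD48+ cells (0.99, adjusted p = 5.99e-04). Bhlhe40 was lower in CD201+CD48+ cells against CD201- ones (-0.29, adjusted p = 0.0353), a call lost in 10 of 17 alternatives (adjusted p up to 0.288).

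**Figure D5:**
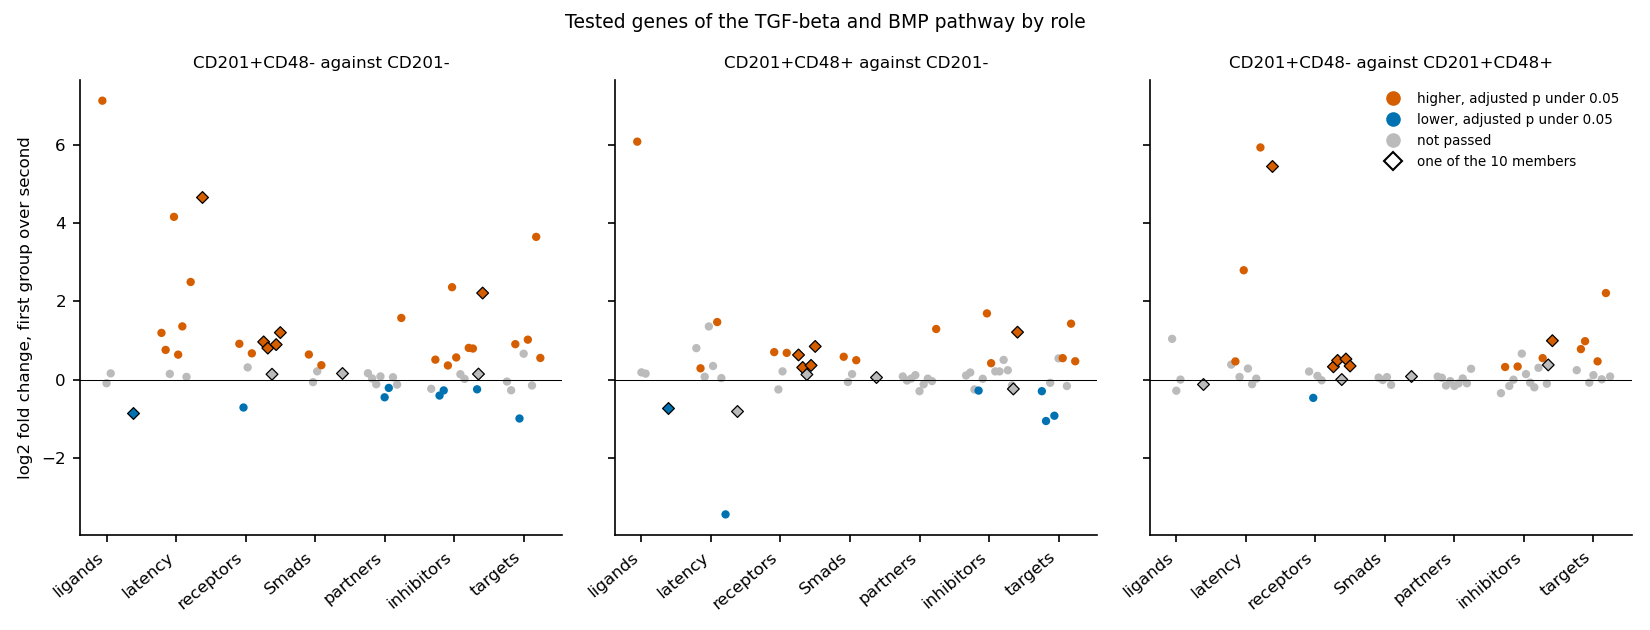
Log2 fold change of each tested pathway gene by role in the 3 comparisons, colored by call, with the 10 genes followed here as diamonds. The high points of the latency group are Ltbp1, Thbs1 and Lrrc32, and the fitted value of the top ligand, Bmp4, against CD201- cells with 0 counts depends on the prior count and is no bound.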

How the data were processed

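The deposited raw table gives each gene symbol a whole number of counts, which the authors had not normalized, judged from the values. The deposited normalized signal table equals those counts divided by 1 size factor per sample (largest relative deviation 5.1e-10), and 26 of its names had turned into dates. The submitters' processing notes name DESeq2 and mm10 without versions, while aligner, counter, annotation and strandedness are not stated in the sources used here. Per the labels' protocols, RNA was extracted with Trizol LS, amplified with a SMARTer kit and read as paired 36 nt reads on a NextSeq sequencer. A further 3 columns matched the labels of no sample and were not used.

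Samples were grouped by their titles. Genes were filtered with filterByExpr (minimum count 10) and scaled by TMM. They were tested with the quasi-likelihood test of edgeR 4.0.16 (robust, 9 samples, group as the only factor) in R 4.3.3. The code was also run on simulated counts without an outlying library, which cannot show how the test performs on these data. The common biological coefficient of variation was 8.64%. Alternatives were DESeq2 1.42.0 size factors and Wald test, the library size alone, other filters, fits of 2 groups, a replicate block, leaving out each library, and limma 3.58.1 on log2 of the deposited signal plus 1. The 10 members, the pathway and marker lists and their tests were chosen with earlier results of these data known. The text names the members, up to 4 tested genes per role with the smallest p, the 2 nearest profiles of each member without predicted names, and listed markers. A further 10 pathway genes that complete small counts (Ltbp4, Fbn1, Ski, Tgif2, Ppm1a, Trim33, Nedd4l, Id1, Bhlhe40 and Cdkn1c) were added after their values were seen. Lengths of canonical transcripts came from GENCODE vM39, which is on another assembly, and coordinates and promoters from RefSeq on GRCm38.p6. Of the members, 7 overlap another annotated gene, so their counts are less certain without strand. Among the members, depth limits the precision of Ltbp1 outside CD201+CD48- cells and of Smad7. Among the other pathway genes it limits Lrrc32, Tgfbi, Smad6, Ltbp4 and Bmp4, with 0 to 14 counts a library in CD201- cells. Figures used matplotlib 3.10.9.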

Additional observations from a re-analysis of the deposited data

How the results depend on the processing

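The members called kept their direction and their side of the threshold in the alternatives run, 17 for each value and 16 for Ltbp1 between CD201+CD48+ and CD201- cells, with 1 exception: Eng between these populations was lost without CD201+CD48+ replicate 3 (adjusted p = 0.0508). Members called numbered 7 to 9, 5 to 7 and 6 to 7 over all alternatives for CD201+CD48- against CD201-, CD201+CD48+ against CD201- and CD201+CD48- against CD201+CD48+ cells. Differences near 0 that did not pass changed sign. Leaving out each library, Smad3 between CD201+CD48+ and CD201- cells ran from -0.019 (without CD201- replicate 3; -0.0080 without CD201+CD48+ replicate 1) to 0.154 (without CD201- replicate 1), and it was 0.196 with the library size alone, the highest of the 17. Tgfbr1 between the CD201+ populations was -0.0094 with no filter on low counts and, leaving out each library, ran from -0.067 (without CD201+CD48- replicate 1) to 0.059 (without CD201+CD48+ replicate 2), also below 0 without CD201+CD48+ replicate 1 (-0.030) or 3 (-0.019). The number of all genes called between the CD201+ populations was 1785, and 3339 when only their 6 libraries were fitted. Leaving out each library gave 1023 (without CD201+CD48- replicate 1) to 3534 (without CD201- replicate 3), and 7 to 16 pathway genes in place of 11, with the same libraries at the ends. The cause was not tested. With the library size alone, 3974 genes were higher and 1685 lower between CD201+CD48- and CD201- cells, in place of 2807 and 2778, and 2701 and 851 between CD201+CD48+ and CD201- cells, in place of 1723 and 1661. Without a filter on low counts the median of all genes between CD201+CD48+ and CD201- cells was 0.11.

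Titles give replicates the numbers 1 to 3 in each population, but the labels do not say that a number marks a shared culture. Deviations from group means of same-numbered samples correlated across genes at -0.11 to 0.04, and those of other pairs at -0.07 to 0.10. Same-numbered samples were thus not more alike, but with 3 replicates a group this cannot show whether they shared a culture or a sort. A replicate block gave 5322, 3038 and 1441 genes called in the 3 comparisons in the order above, 7, 6 and 6 members, and 28, 16 and 10 pathway genes. It changed no call of a member.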
